A study of Macaca mulatta with 24 samples.

Results

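Genes of the sodium, calcium, HCN, TRP and chloride channel families were examined in the cerebral cortex of rhesus monkeys on 3 diets. A gene was taken where its symbol in the annotation of the human array starts with SCN and a digit, CACN, HCN and a digit, TRPC, TRPM, TRPV, CLCN or CLIC, and where at least 1 of its probes had a detection p under 0.01 on at least 4 of the 24 arrays. The array carries 73 such symbols on 116 probes, and 37 of them passed, out of 9884 genes that passed in all. They were 7 sodium, 20 calcium, 1 HCN, 6 TRP and 3 chloride genes. Among the 37, CACNA1C-AS4 is an RNA antisense to a calcium channel gene, TRPC4AP encodes a protein that associates with TRPC4 and is not itself a channel, and the CACNG genes include auxiliary subunits of AMPA-type glutamate receptors. A gene of the same symbol stood in the rhesus RefSeq annotation T2T-MMU8v2.0 for 36 of the 37, with CACNA1C-AS4 the exception.

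Adult male rhesus monkeys (Macaca mulatta, 7 to 13 years old) were kept for 24 months on a standard diet (SD, 4 monkeys, 13% of kcal as fat and under 5% sucrose by weight), on a high-fat, high-sugar diet (HFS, 10 monkeys, 42% of kcal as fat and 27% sucrose), or on that same HFS diet with the plant polyphenol resveratrol (RSV) given in flavored treats (HFS+R, 10 monkeys). Each of the 2 daily treats held 40 mg of RSV during year 1 and 240 mg during year 2, while the SD and HFS monkeys were given placebo treats. No group received RSV on the standard diet, so RSV was measured only on top of HFS feeding. RNA of the cortex was hybridized to Illumina HumanHT-12 V4.0 beadchips, 1 array a monkey. The labels give the site as cerebral cortex only, while the methods name the temporal neocortex and other passages of the paper the frontal or prefrontal cortex, so the region is not settled. The array is made for human transcripts, and their match to monkey sequence was not examined.

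Neurons fire action potentials when voltage-gated sodium channels open, and an alpha subunit forms the pore while beta subunits set its gating and place it in the membrane. Calcium channels turn depolarization into calcium entry at synaptic terminals and dendrites, HCN channels carry a cation current that opens on hyperpolarization, and TRP channels are cation channels that respond to lipids, temperature, calcium and ligands. CLCN proteins are chloride channels and chloride/proton exchangers of the plasma membrane and endosomes, and CLIC proteins are soluble proteins that can insert into membranes.

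Levels below are log2 signals on a Z-normalized scale, and a log2 fold change is a difference of 2 group means on that scale, given with its standard error (SE). Differences were tested with limma in 1 fit of the 3 diets, and a gene rose or fell only where its p, adjusted by Benjamini-Hochberg over the 9884 genes, was under 0.05. The 24 arrays had between 11413 and 14890 detected probes, with the lowest number on SD replicate 3, and each array correlated with the remaining ones at a mean of 0.984 or more. The spread of the log2 signal over an array had a mean of 1.42 in HFS and 1.48 in HFS+R (permutation test of the difference of means, two-sided, p = 0.0174, adjusted p = 0.209 over 12 tests of array measures). Among the SD arrays it was widest in replicates 1 and 2, at 1.57 and 1.56. The number of detected probes among the channel genes ran from 35 to 42 in both HFS and HFS+R. Of the lists of cell type markers, the 4 measured pan-neuronal genes, the 3 excitatory and the 3 GABA neuron genes and the 6 astrocyte genes were each detected on all 24 arrays, and SYT1 was not measured. Mean levels of 9 marker lists overlapped between HFS and HFS+R, and none of their differences passed (lowest adjusted p = 0.626 for that comparison, 27 tests), but 3 single markers passed, GJA1 and MOG higher and ALDH1L1 lower in HFS+R, with log2 fold changes of 0.56, 0.39 and -0.32. Against SD, HFS+R had MOG higher by 0.42 (adjusted p = 0.00469) and ALDH1L1 at -0.57 (adjusted p = 0.00878). The mean of the 3 hemoglobin genes was higher than in SD by 1.02 in HFS and by 0.83 in HFS+R. Groups overlapped and neither difference passed (exact permutation test, adjusted p = 0.507 and 0.626 over 27 tests). The part of these markers in the channel results was not tested, beyond a fit with the oligodendrocyte markers as a covariate. In that fit 8 channel genes passed in HFS+R vs HFS, beside 978 higher and 624 lower of the 9884 genes. In tissue RNA, fewer cells of a type and less RNA in each cell cannot be told apart.

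In HFS+R compared with HFS, which asks what RSV changed on the high-fat diet, 9 of the 37 channel genes (24.3%) passed the test. Over all 9884 genes, 16% passed (1582). SCN8A, SCN3A and CACNB2 rose, and TRPV1 passed in the same direction (9.94% of all genes did), and SCN2A, CACNA1A, CACNA1I, CACNG2 and CLCN6 fell, against 6.07%. TRPV1 was detected on 5 HFS+R arrays and 1 HFS array and so met the detection rule only through HFS+R, the group where it was higher, and nothing is read from its being counted. Among genes detected on all 24 arrays, 7 of the 26 channel genes passed, beside 914 higher and 622 lower of 7271 genes. The median log2 fold change was -0.02 over the 37 genes and 0.02 over all genes. The median size of the change, whatever its sign, was 0.12 over the channel genes and 0.11 over all genes. The groups overlapped for all 37, while 15 of the 9884 genes (0.152%) had groups that did not overlap. At an unadjusted p under 0.05 there were 12 channel genes, against 31.4% of all genes. With the thresholds of the study (Z ratio over 1.5 in size, p under 0.05 and a limit of 0.3 on the false discovery rate, read here as an upper limit although the methods print a greater-than sign) 12 were called, against 26.4% of all genes. With the spread of each array's log2 signal added to the fit as a covariate, 3 of the 9 still passed (CACNA1A, CACNG2 and SCN2A). Over all 9884 genes, 161 were then higher and 241 lower. With each array scaled only by its median, 6 of the 9 passed (4 higher and 2 lower, a higher share of 66.7% against 44.4%). Over all genes, 1410 were then higher and 73 lower.

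**Figure D1:**
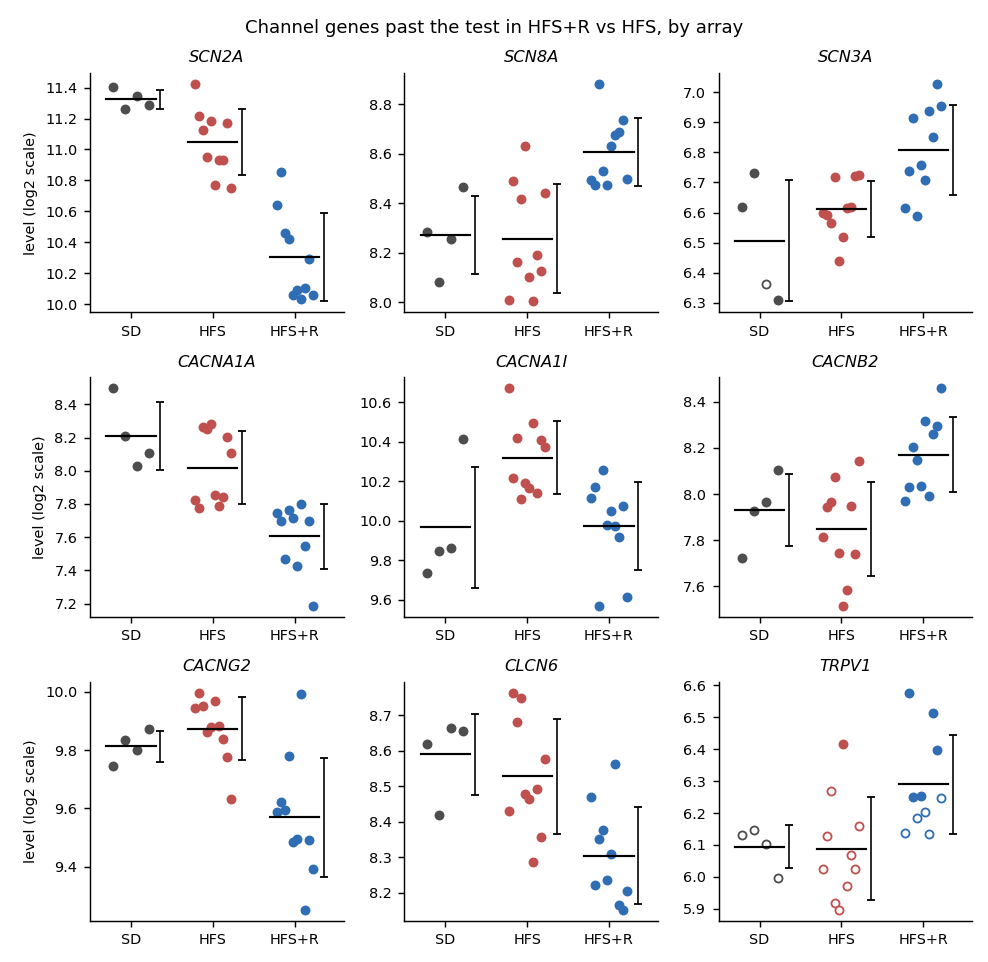
Levels of the 9 channel genes that passed the test in HFS+R compared with HFS, on each array (y axis, log2 scale, a separate range in each panel). Each point is 1 monkey (4 SD, 10 HFS, 10 HFS+R), filled where the probe was detected at p under 0.01 and open where it was not, the line is the group mean and the bar 1 standard deviation. In SCN2A the HFS+R arrays lie at 10.04 to 10.86 and only the highest of them reaches the lowest HFS arrays, while in TRPV1 most points are open.

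Of the 4 sodium channel alpha subunits measured, SCN2A fell, SCN8A and SCN3A rose and SCN1A did not pass. SCN2A encodes Nav1.2, a sodium channel of excitatory neurons and their axons. Its level was 11.40, 11.26, 11.34 and 11.29 on the SD arrays. It was 10.75 at the lowest, 11.04 at the median and 11.42 at the highest in HFS, and 10.04, 10.20 and 10.86 in HFS+R. The HFS+R arrays were thus the low ones, all 10 of them below the HFS mean, and only the highest of them, at 10.86, reached the HFS range. The log2 fold change in HFS+R against HFS was -0.74 (SE 0.10, 95% confidence interval -0.95 to -0.54, adjusted p = 0.000668), a level lower by 1.67-fold, and its unadjusted p ranked 1 among the 9884 genes.

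SCN8A encodes Nav1.6, the channel densest at the axon initial segment and the nodes of Ranvier in adult neurons. Its level was 8.28, 8.08, 8.26 and 8.46 in SD, 8.00 to 8.63 with a median of 8.18 in HFS, and 8.47 to 8.88 with a median of 8.58 in HFS+R. The HFS+R arrays were the high ones, all 10 above the HFS mean, and overlapped the upper HFS arrays. The log2 fold change was 0.35 (SE 0.08, adjusted p = 0.00586), or 1.28-fold. It was 0.29 (adjusted p = 0.0561) with the spread of each array as a covariate, the 1 of its alternatives in which it did not pass.

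On each array the Z-normalized level of SCN8A minus that of SCN2A was also taken. This difference does not depend on the mean of the array, but it does depend on the spread by which the array was divided. That spread had a mean of 1.42 in HFS and 1.48 in HFS+R. Both genes were chosen for this after their values were seen, so the difference is given without a test, and its level says nothing of the ratio of the transcripts. It was -3.18 to -2.82 in SD, -3.42 to -2.31 in HFS with a median of -2.74, and -2.38 to -1.36 in HFS+R with a median of -1.57. Only the lowest HFS+R array reached into the HFS range. The difference rests on the brightest SCN2A probe, and the other kept probes of SCN2A, given below, did not fall.

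SCN3A encodes Nav1.3, best known from the developing brain. Its level was 6.62, 6.73, 6.36 and 6.31 in SD, 6.44 to 6.73 with a median of 6.61 in HFS and 6.59 to 7.03 with a median of 6.81 in HFS+R, and it was detected on 23 of the 24 arrays. HFS+R was higher than HFS by 0.20 (SE 0.06, adjusted p = 0.0369), with 9 of 10 arrays above the HFS mean. Without single monkeys its adjusted p ran from 0.0233 to 0.0725, and the call was lost without HFS replicate 1, 2, 3, 5, 6 or 7 or HFS+R replicate 3, 7, 8, 9 or 10. It was also lost with quantile or neqc normalization, without the detection filter and with the array spread as a covariate. SCN1A, which encodes Nav1.1 and carries much of the sodium current of inhibitory interneurons, had 9.32 to 10.60 in HFS+R, 9.74 to 10.81 in HFS and 10.25 to 10.68 in SD. Its log2 fold change against HFS of -0.36 (SE 0.15, adjusted p = 0.108) did not pass.

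In the rhesus annotation SCN3A and SCN2A lie next to each other, with 0 other coding genes between them, and SCN2A and SCN1A have 3 coding genes between them. Of these neighbours on 1 chromosome, SCN2A was the one that fell and SCN3A rose. The 3 beta subunits measured did not pass. SCN4B, whose product binds covalently to the pore and supports resurgent current in mouse neurons, had a log2 fold change of -0.34 (SE 0.17, adjusted p = 0.175). Its neighbour SCN2B, another covalently bound subunit, had -0.07 (adjusted p = 0.503), and SCN3B, which binds without a covalent link, had 0.05 (adjusted p = 0.786).

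**Figure D2:**
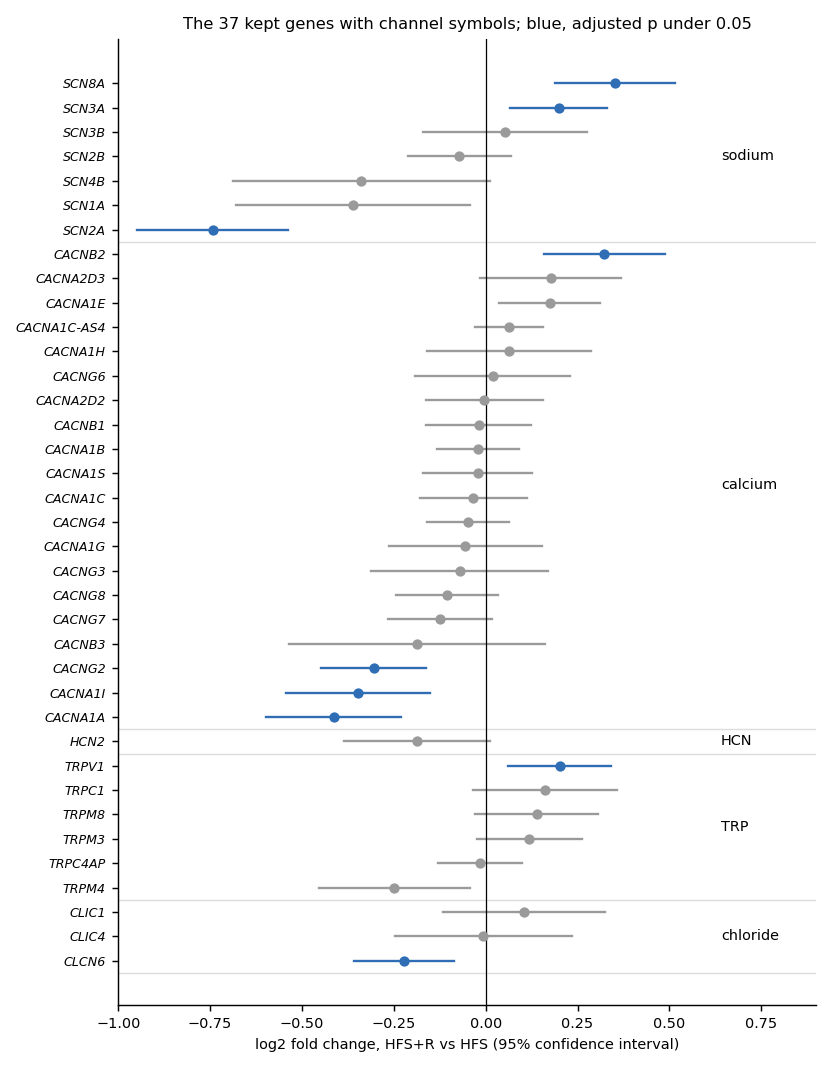
Log2 fold change of HFS+R against HFS (x axis) for the 37 kept genes with channel symbols, by family, with 95% confidence intervals from the fit over 24 arrays. Blue genes passed at adjusted p under 0.05 and grey ones did not. SCN2A at -0.74 lies farthest from 0, and of the 20 calcium genes 1 rose and 3 fell.

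SCN2A is carried by 3 kept probes, and they did not move alike. The probe described above, the brightest, is annotated to 1 transcript record and the others to a different one. Another probe, detected on all 24 arrays, stood at 7.48 to 8.38 in HFS and 7.58 to 8.39 in HFS+R, with a log2 fold change of 0.24 (SE 0.10, adjusted p = 0.122 over all probes). The remaining probe, detected on 17 arrays, had 0.0015 (SE 0.06, adjusted p = 0.991). The difference between the brightest probe and each of the others, taken within each array, was lower in HFS+R than in HFS by a log2 of 0.98 and 0.74 (permutation test over 10 and 10 arrays, two-sided, p = 2e-05, the smallest that 100000 permutations can give, and p = 4e-05, adjusted p = 9e-05 and 0.00012 over 9 such pairs). The mean of the 3 probes differed by -0.17 (adjusted p = 0.0763). The fall of SCN2A is therefore a measurement of 1 probe, and the array does not show which transcripts each probe catches in the monkey.

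**Figure D3:**
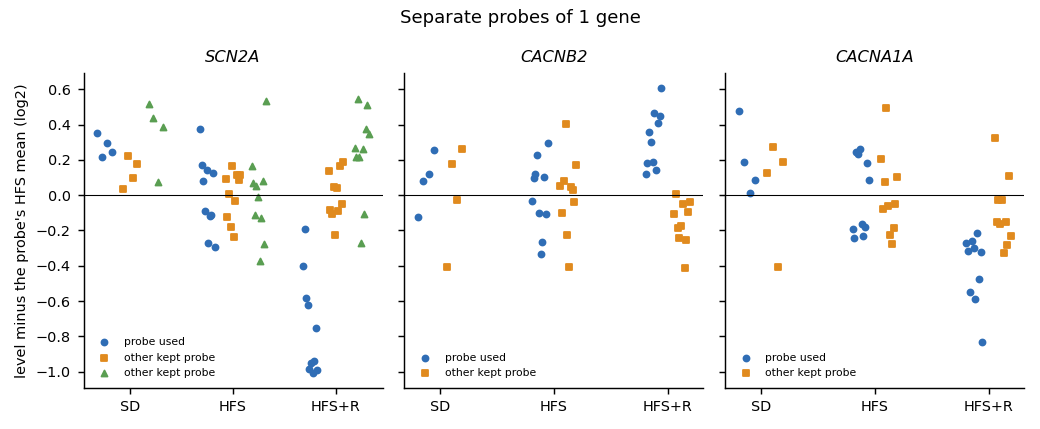
Separate kept probes of SCN2A (3), CACNB2 (2) and CACNA1A (2) on each array, each probe drawn as its log2 level minus its own mean in HFS (y axis). Blue points are the probe used for the gene and other colors the further kept probes. The blue HFS+R points of SCN2A and CACNA1A lie below 0 and those of CACNB2 above 0, while the other probes stay around 0 or lie on the other side.

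Of the calcium channel genes, 3 of the 20 fell and 1 rose, and the median log2 fold change was -0.03. The share that passed was 20.0%, beside 16% of all genes. Pore subunits (CACNA1) set the type of calcium current. CACNA1A encodes the P/Q-type pore that triggers transmitter release at many cortical synapses. Its level was 8.50, 8.21, 8.03 and 8.11 in SD, 7.78 to 8.28 with a median of 7.98 in HFS and 7.19 to 7.80 with a median of 7.70 in HFS+R. HFS+R was low on all 10 arrays against the HFS mean and only the highest array, at 7.80, reached the HFS range, and the log2 fold change was -0.41 (SE 0.09, adjusted p = 0.00468), or 1.33-fold lower. A further probe annotated to the same transcript record, detected on 22 arrays, gave -0.09 (SE 0.10, adjusted p = 0.564), and the difference between the 2 probes within arrays was lower in HFS+R by 0.32 (permutation test, p = 0.00418, adjusted p = 0.0094).

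CACNA1I encodes a T-type pore, which opens at low voltage and supports rhythmic and burst firing. Its level was 9.73, 9.85, 9.86 and 10.42 in SD, 10.11 to 10.67 with a median of 10.29 in HFS and 9.57 to 10.26 with a median of 10.01 in HFS+R. HFS arrays were the high ones, and the lower HFS arrays overlapped the upper HFS+R arrays. The log2 fold change in HFS+R against HFS was -0.35 (SE 0.10, adjusted p = 0.0164). It was -0.17 (adjusted p = 0.167) with median scaling and -0.21 (adjusted p = 0.175) with the array spread as a covariate.

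CACNB2 encodes a beta subunit, which brings the pore to the membrane and shapes its gating. Its level was 7.72, 7.93, 7.97 and 8.11 in SD, 7.52 to 8.14 with a median of 7.88 in HFS and 7.97 to 8.46 with a median of 8.18 in HFS+R, so the HFS+R arrays were high and overlapped the upper HFS arrays. The log2 fold change was 0.32 (SE 0.08, adjusted p = 0.00976). Another kept probe, annotated to a different transcript record, had -0.16 (SE 0.09, adjusted p = 0.235). Within arrays the difference between them was higher in HFS+R by 0.48 (permutation test, p = 2e-05, adjusted p = 9e-05), and their mean differed by 0.08 (adjusted p = 0.484).

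CACNG2 encodes stargazin, which carries AMPA receptors to the synapse. Its level was 9.75, 9.83, 9.80 and 9.87 in SD, 9.63 to 10.00 with a median of 9.88 in HFS and 9.25 to 9.99 with a median of 9.54 in HFS+R. Of the HFS+R arrays 9 of 10 were below the HFS mean, and the highest lay near the top of the HFS range. The log2 fold change was -0.30 (SE 0.07, adjusted p = 0.00624), and it was -0.14 (adjusted p = 0.301) with median scaling. Of the related AMPA receptor subunits, CACNG3, CACNG4, CACNG7 and CACNG8 had -0.07, -0.05, -0.12 and -0.11, and none of the 4 passed (lowest adjusted p = 0.224, for CACNG7).

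The other 16 calcium genes had log2 fold changes from -0.19 (CACNB3) to 0.18 (CACNA2D3), none past the test. CACNA1E, the R-type pore, had 0.17 (SE 0.07, adjusted p = 0.0772) with 9 of 10 HFS+R arrays above the HFS mean. CACNA1C, the L-type pore that links calcium entry to transcription, had -0.03 (95% confidence interval -0.18 to 0.11, adjusted p = 0.784), and its antisense RNA CACNA1C-AS4 had 0.06 (adjusted p = 0.344). CACNA1G and CACNA1H, the other T-type pores, had -0.06 and 0.06 (adjusted p = 0.749 and 0.729). CACNA1S, the pore of skeletal muscle, had -0.02 (adjusted p = 0.872). The alpha2delta subunits, which carry channels to the membrane, had -0.0043 for CACNA2D2 and 0.18 for CACNA2D3 (adjusted p = 0.978 and 0.198), and the beta subunits CACNB1 and CACNB3 had -0.02 and -0.19 (adjusted p = 0.888 and 0.478). CACNG6, of the gamma subunits best known from muscle, had 0.02 (adjusted p = 0.926).

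The HCN family was measured by HCN2 alone, a pacemaker channel of cortical and thalamic neurons. HCN3 was detected on none and HCN4 on 2 of the 24 arrays. HCN2 stood at 7.15, 7.66, 7.41 and 7.30 in SD, 6.74 to 7.56 with a median of 7.22 in HFS and 6.67 to 7.25 with a median of 7.00 in HFS+R. The 3 groups overlapped. Its log2 fold change in HFS+R against HFS was -0.19 (SE 0.10, adjusted p = 0.187), and a further probe gave -0.10 (adjusted p = 0.435).

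Of the 6 TRP genes, TRPV1 was the one past the threshold, and it met the detection rule only through the HFS+R arrays. TRPV1 is the receptor for capsaicin and noxious heat, and its probe was close to background. It was detected on 0 of 4 SD, 1 of 10 HFS and 5 of 10 HFS+R arrays, with levels of 5.90 to 6.42 (median 6.05) in HFS and 6.13 to 6.58 (median 6.25) in HFS+R. The log2 fold change was 0.20 (SE 0.07, adjusted p = 0.0442), and no fold is given, since it was detected on no SD array and on so few HFS arrays. It lost the call in 20 of 38 refits with other processing, among them without HFS replicate 1, 2, 4, 5, 7, 8 or 9 or HFS+R replicate 2, 3, 5, 8, 9 or 10, where the adjusted p reached 0.0842.

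TRPM4, a calcium-activated channel for monovalent cations, stood at 9.40, 9.43, 9.06 and 9.31 in SD, 9.21 to 9.92 with a median of 9.66 in HFS and 9.00 to 9.63 with a median of 9.41 in HFS+R. Its log2 fold change against HFS was -0.25 (SE 0.10, adjusted p = 0.0863), with 9 of 10 arrays below the HFS mean, and it passed without HFS replicate 1 or 8. TRPC1, a subunit of receptor-operated cation channels, had 0.16 (adjusted p = 0.257). TRPM8, the cold and menthol receptor, and TRPM3, a channel opened by neurosteroids, had 0.14 and 0.12 (adjusted p = 0.252 for both), and TRPC4AP had -0.01 (adjusted p = 0.891).

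Of the 3 chloride genes, CLCN6 fell. It encodes an exchanger of late endosomes. Its level was 8.62, 8.42, 8.66 and 8.65 in SD, 8.29 to 8.76 with a median of 8.49 in HFS and 8.15 to 8.56 with a median of 8.27 in HFS+R. HFS+R arrays were lower than the HFS mean on 9 of 10 and overlapped the HFS range. The log2 fold change was -0.22 (SE 0.07, adjusted p = 0.0257), and the call was lost without HFS replicate 3 or 4 (highest adjusted p = 0.0535), with the replicate number as a block (adjusted p = 0.0551), with the array spread as a covariate (adjusted p = 0.0779) and with median scaling (-0.11, adjusted p = 0.368). CLIC1 and CLIC4, redox-sensitive proteins of the cytoplasm and membranes, had 0.10 and -0.01 (adjusted p = 0.541 and 0.978). CLCN3, an endosomal exchanger of neurons, was on the array with no detected probe.

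In HFS compared with SD, which asks what the high-fat, high-sugar diet did by itself, 0 of the 37 channel genes passed, as did 0% of all genes in limma. At an unadjusted p under 0.05 there were 3 channel genes, while 12.6% of all genes lay there. These were CACNA1I, with a log2 fold change of 0.35 (SE 0.13, adjusted p = 0.272) and all 10 HFS arrays above the SD mean, TRPM4 with 0.30 (SE 0.13, adjusted p = 0.343), and SCN2A with -0.28 (SE 0.13, adjusted p = 0.386). The size of the CACNA1I difference depended on the processing. It ran from 0.12 to 0.50 over 39 refits and passed in none of them. With the thresholds of the study 1 channel gene was called, against 5.38% of all genes, and groups did not overlap for 0 of the 37, against 0.536% of all genes. The median was -0.04 over the channel genes and -0.03 over all genes. Other values were CACNA2D3 at -0.25 (adjusted p = 0.399), SCN3B at -0.23 (adjusted p = 0.496) and HCN2 at -0.20 (adjusted p = 0.518). TRPC4AP had 0.12 (adjusted p = 0.479), CLCN6 -0.06 (adjusted p = 0.805) and CLIC1 -0.04 (adjusted p = 0.932). With 4 SD arrays, the 95% confidence intervals were wide, for SCN8A from -0.23 to 0.20 and for SCN1A from -0.57 to 0.27.

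**Figure D4:**
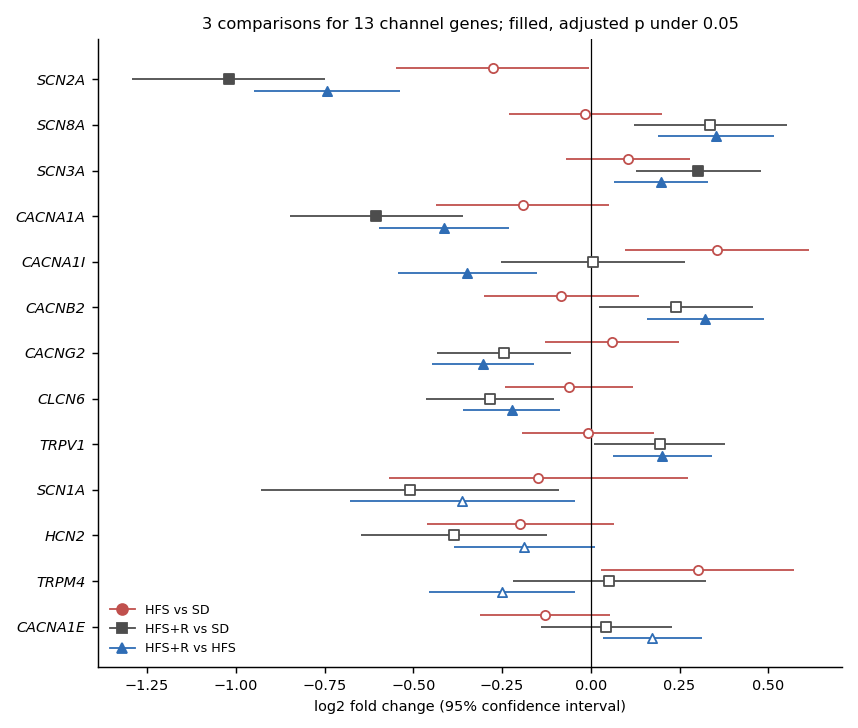
Log2 fold changes (x axis, 95% confidence intervals) of 13 channel genes in HFS vs SD, HFS+R vs SD and HFS+R vs HFS, from 1 fit over 24 arrays. Filled marks passed at adjusted p under 0.05 and open marks did not. All HFS vs SD marks are open, and CACNA1I lies at 0.35 in HFS vs SD and at -0.35 in HFS+R vs HFS, which share the HFS arrays.

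In HFS+R compared with SD, 3 of the 37 channel genes (8.11%) passed, against 6.30% of all genes. For 1 gene that rose the share over all genes was 2.21%, and for 2 that fell it was 4.10%. At an unadjusted p under 0.05 there were 10, against 20.4% of all genes, and with the thresholds of the study 9, against 17.6%. SCN2A was lower by 2.03-fold (log2 fold change -1.02, SE 0.13, 95% confidence interval -1.29 to -0.75, adjusted p = 0.00013), with HFS+R and SD arrays that did not overlap. CACNA1A was lower by 1.52-fold (-0.60, SE 0.12, adjusted p = 0.00243), also without overlap. SCN3A was higher (0.30, SE 0.09, adjusted p = 0.0319), with all 10 HFS+R arrays above the SD mean, but lost the call without SD replicate 3 or 4 or HFS+R replicate 7, 9 or 10 (highest adjusted p = 0.149), with median scaling (adjusted p = 0.13), with only those diets in the fit (adjusted p = 0.0788), with array weights (adjusted p = 0.106) and with the replicate number as a block (adjusted p = 0.79). That block used only the 4 replicate numbers shared with SD, and 0 of all 9884 genes passed with it. SCN8A at 0.34 (SE 0.11, adjusted p = 0.0537) did not pass although its groups did not overlap. SCN8A passed with quantile or neqc normalization, among genes detected on all 24 arrays, and with only those diets in the fit. It also passed with the array spread as a covariate and with array weights. Without single monkeys it passed when HFS replicate 1, 2, 5 or 7, HFS+R replicate 2 or SD replicate 4 was left out. Groups that did not overlap were found for these 3 genes, SCN2A, CACNA1A and SCN8A, and for 4.01% of all genes.

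This comparison shares its HFS+R arrays with the one against HFS, and its SD arrays with HFS vs SD, so the comparisons are not independent. Beside the 3 called genes, CLCN6 had -0.28 (SE 0.09, adjusted p = 0.0523), HCN2 -0.39 (SE 0.13, adjusted p = 0.0715), CACNG2 -0.24 (adjusted p = 0.12), SCN1A -0.51 (adjusted p = 0.147), CACNB2 0.24 (adjusted p = 0.19) and TRPV1 0.19 (adjusted p = 0.217). With other processing CLCN6 passed in 9 of 39 refits. HCN2 passed in 4 of 40, among them the mean of its kept probes, and CACNG2 in 1 of 39. CACNA1I at 0.01 (95% confidence interval -0.25 to 0.27) and TRPM4 at 0.05 (-0.22 to 0.32) had levels in HFS+R close to those in SD, and CACNA1E had 0.04 (adjusted p = 0.832). TRPC4AP had 0.11 (adjusted p = 0.43) and CLIC1 0.07 (adjusted p = 0.846). Without SD replicates 1 and 2, which left 2 SD arrays, SCN2A had -1.01 (adjusted p = 0.00954), SCN3A 0.47 (adjusted p = 0.0206) and CACNA1A -0.46 (adjusted p = 0.0818). The other probes of SCN2A had -0.12 and -0.13 and that of CACNA1A -0.14, none past the test.

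Genes that work with these channels were taken as a list of 80 anchors, ligases, release and store calcium channels, pumps, chloride transporters and related channels, of which 53 were measured. In HFS+R against HFS 11 of the 53 passed, 7 higher and 4 lower, beside 16% of all genes. SPTBN4, the spectrin that holds sodium channels at the axon initial segment, stood at 9.57 to 10.05 in HFS and 8.99 to 9.65 in HFS+R and fell by 0.46 (SE 0.08, adjusted p = 0.00105). NEDD4L, a ubiquitin ligase that removes sodium channels from the membrane, stood at 7.94 to 8.42 in HFS and 7.35 to 8.13 in HFS+R and fell by 0.47 (SE 0.09, adjusted p = 0.00185).

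The inositol trisphosphate receptors that release calcium from stores, ITPR1 and ITPR2, rose by 0.30 and 0.28 (adjusted p = 0.0025 and 0.00531), and RYR2, a ryanodine receptor of the same stores, fell by 0.31 (adjusted p = 0.0218). HOMER1, a postsynaptic scaffold that binds these receptors and TRPC channels, rose by 0.43 (SE 0.11, adjusted p = 0.00939). RIMS1, which tethers calcium channels at release sites, rose by 0.21 (adjusted p = 0.0364), and ATP2B1, a calcium pump of the plasma membrane, rose by 0.29 (adjusted p = 0.0453). KCNE2, a small subunit that can join HCN channels, passed at 0.20 (adjusted p = 0.0205) but was detected on only 9 of 24 arrays. Of the chloride list, ANO4, of the anoctamin family, rose by 0.23 and TTYH1 fell by 0.23 (adjusted p = 0.0268 and 0.0318).

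In HFS vs SD 0 of the 53 partner genes passed. Of the same 53 genes 5 passed in HFS+R vs SD, beside 6.30% of all genes, with NEDD4L at -0.69 (SE 0.11, adjusted p = 0.000641) and SPTBN4 at -0.39 (SE 0.10, adjusted p = 0.0224) lower, and RIMS1 at 0.38, ITPR1 at 0.31 and ITPR2 at 0.28 higher. The SD and HFS+R arrays did not overlap for 5 of the 53, beside 4.01% of all genes. These were NEDD4L, ITPR1 and SPTBN4, and also NALF1, a subunit of the sodium leak channel complex, at -0.24 (adjusted p = 0.0728) and LRRC8A, a subunit of volume-regulated anion channels, at 0.18 (adjusted p = 0.22), which did not pass.

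Detection set what could be said of the remaining symbols. Of the 37 kept genes, 26 were detected on all 24 arrays and 11 on fewer. CACNA1B, the N-type pore of presynaptic terminals, was the 1 detected on the fewest, with 1 SD, 3 HFS and 0 HFS+R arrays, and its probe was not well above background in HFS+R. Its log2 fold change of -0.02 (adjusted p = 0.838) is a difference near background and has no fold. CACNG8 was likewise detected on 0 SD, 4 HFS and 2 HFS+R arrays, and TRPM3 on 5 arrays in all. Just outside the rule lay CACNA1F, detected on 3 arrays. Of the 36 symbols not kept, 6 were detected on 1 to 3 arrays and 30 on none.

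**Figure D5:**
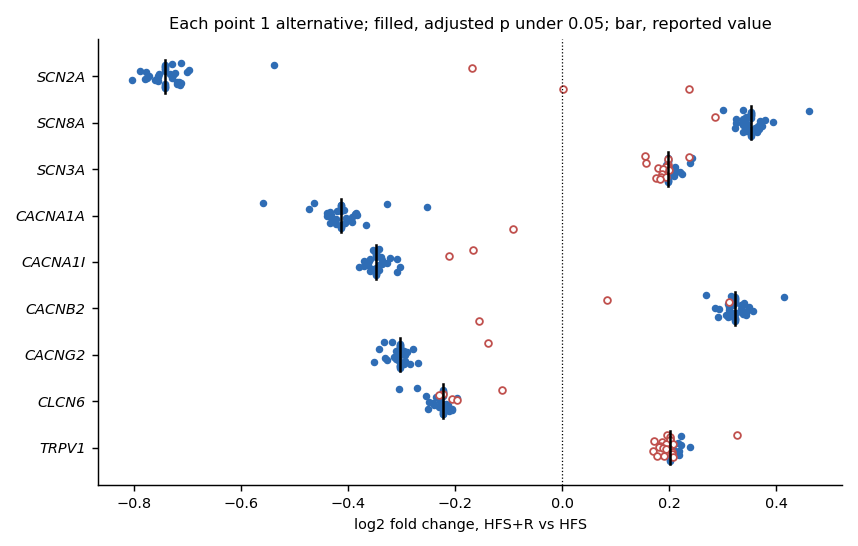
Log2 fold change of HFS+R against HFS (x axis) for the 9 genes that passed, under each alternative processing (1 point each). The black bar is the reported value, filled points passed at adjusted p under 0.05 and open points did not. SCN8A has 1 open point, most points of TRPV1 are open, and the open points of SCN2A near and above 0 are its other probes and the mean of its probes.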

How the data were processed

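The authors deposited signal intensity per probe and array from GenomeStudio 2011.1, with the detection p-value beside each intensity, and a Z score, which is log2 intensity minus the array's mean over the array's standard deviation. Z scores recomputed here from the intensities matched the deposited scores within 5e-10. They were multiplied by 1 factor (1.46) and 1 constant (6.46) was added, the same for all arrays, which gives a log2 scale. Kept probes had detection p under 0.01 on at least 4 arrays, and the brightest kept probe stood for a gene. Differences were tested with limma 3.58.1 in R 4.3.3 on 9884 genes (Benjamini-Hochberg, 0.05), and single values with permutation tests (SciPy 1.17.1, two-sided, 100000 permutations). The fit was tested on simulated data. Named genes were those past the test, the 2 with the smallest p of each family and comparison, main cortical pore subunits, genes whose probes disagreed, genes at the detection limit and partner genes past the test. The channel genes, partner list and markers were chosen with earlier results of these data known. No sequences are printed. Each array is 1 monkey, and the number of arrays limits the precision. Of 47323 probes, 30113 have 1 gene symbol, 8 several and 17202 none listed; symbols are those of the platform annotation.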

Additional observations from a re-analysis of the deposited data

Results flagged for a closer look

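In 111 pairs of a channel gene and a diet group, 3 arrays lay far from the rest of their group by Dixon's gap at the 95% level, which chance alone gives in about 1 in 20 groups. CACNB3 was 9.15 on HFS+R replicate 6, against 10.03 on the next array and 10.86 on the highest. CACNA1H was 6.71 on HFS replicate 1, against 6.31 on the next. CLIC4 was 7.11 on HFS+R replicate 8, against 6.82 on the next. All 3 genes had differences between diets that did not pass.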

How the results depend on the processing

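Of 240 recomputed counts, 225 stayed within 1.5 times the reported one. Those of HFS vs SD started from 0, where 0 of all genes passed, and so could hardly move. Of 1369 recomputed values of 34 gene comparisons, 1263 kept their direction and side of the threshold, 63 no longer passed, 24 passed newly and 19 changed sign. Comparisons that had not passed as reported could not lose a call. In HFS+R vs HFS, SCN3A lost the call in 15 of 38 refits and TRPV1 in 20 of 38, the other called genes in 1 to 5. The cause of these changes was not tested. In HFS+R vs HFS, the 9 channel genes became 3 with the array spread as a covariate, and 7 to 10 without single monkeys. Over all genes, 982 higher and 600 lower became 161 and 241 with the array spread. They became 681 and 428 without HFS replicate 4, and 1217 and 707 without HFS replicate 10. In HFS vs SD, 0 channel genes became 1 under the study's thresholds. In HFS+R vs SD, 3 became 0 with a replicate block and 9 under the study's thresholds. With array spread or oligodendrocyte markers as a covariate they became 5. Without single monkeys they were 2 to 6, with 5 without HFS replicate 2 and 6 without HFS replicate 7. Over all genes, 224 were higher and 406 lower without HFS replicate 2, and 242 and 424 without HFS replicate 7. The block used only replicate numbers present in both groups, so the SD comparisons kept 4 arrays of each diet. With it 0 of all 9884 genes passed in HFS+R vs SD. Array spread gave 460 higher and 517 lower over all genes there, and oligodendrocyte markers 277 and 460. The 11 partner genes in HFS+R vs HFS became 3 with array spread. In HFS+R vs SD the 5 became 2 with median scaling, 0 with a replicate block, 9 with oligodendrocyte markers, 3 without SD replicates 1 and 2 (an alternative chosen after seeing the data), and 2 to 6 without single monkeys (3 without SD replicate 3, 2 without SD replicate 4). Over all genes there, median scaling gave 30 higher and 331 lower. Leaving out SD replicates 1 and 2 gave 172 and 153, SD replicate 3 alone 100 and 273, and SD replicate 4 alone 149 and 297. Replicate numbers did not pair the monkeys. Deviations of same-numbered arrays correlated at -0.118 to 0.249 for HFS+R and HFS, with 2 of 10 pairs over 0.1 and 3 best with their own number, at -0.16 to 0.22 for HFS and SD and at -0.393 to 0.037 for HFS+R and SD. The block gave 7 channel genes in HFS+R vs HFS, beside 924 higher and 620 lower over all genes.

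Median scaling shifted all genes by a median of 0.11 in HFS+R vs HFS and -0.16 in HFS vs SD, and higher genes made 95.1% of those called, against 62.1% as reported and 52.3% with quantile normalization, which called 7 channel genes, 2 higher and 5 lower. Over all genes quantile normalization called 819 higher and 747 lower. Signs changed for other probes of CACNB2 (-0.16) and SCN2A (0.24 and 0.0015) in HFS+R vs HFS. In HFS vs SD they changed for CACNA2D3 (0.014, array spread), CLCN6 (0.066, block), TRPC4AP (-0.10, median scaling) and CLIC1 (0.0202 with quantile and 0.019 with neqc normalization, 0.058 with array spread, -0.12 to 0.021 without single monkeys). In HFS+R vs SD they changed for CLIC1 (-0.024, block, and -0.0022 to 0.12 without single monkeys) and TRPC4AP (-0.014 without SD replicates 1 and 2, -0.064 in its other probe). In HFS+R vs HFS they changed for CACNA1B (-0.041 to 0.00094 without single monkeys) and CACNA1C (0.058 with median scaling, -0.067 to 0.0058 without single monkeys). None of these passed in either setting, apart from the reported CACNB2 and SCN2A. Signals near background limit CACNA1B, CACNG8, TRPM3 and TRPV1.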
